A study of Mus musculus with 6 samples.

Results

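Glycolysis genes and genes of the response to low oxygen were read in the posterior eye of mouse embryos that lack Oa1 and of wild-type (WT) embryos. The list holds 31 genes in 4 classes: 17 glycolytic enzymes, 4 carriers of glucose or lactate, 4 genes of the hypoxia factors and the hydroxylases that control them, and 6 targets of those factors. Members were the probe sets whose gene symbol in the platform annotation is on the list, and each gene was read by its brightest probe set over the 6 arrays. Of the 31 genes, 29 had a probe set with 1 gene symbol, 64 probe sets in all, out of 18194 genes named on the array. Gpi1 and Eno1 have no expression value here, and only their promoter windows were read. A total of 27 members passed a filter on low signal and were tested, Adm did not pass it, and Gapdh was read by control probe sets only.

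Pigment cells make the receptor Oa1 (gene symbol Gpr143), which is coupled to G proteins, and people without it have ocular albinism. The arrays came from 3 Oa1-/- and 3 WT dams at 15.5 days post coitum, and each sample pooled the eyes of 6 embryos of 1 dam after the anterior segments had been cut away. No other allele or treatment is labelled in either group, here called knockout and WT pools, and the labels give neither strain, nor embryo sex, nor how much of Oa1 was removed. A replicate is thus a litter pool of whole posterior eye tissue, and a lower signal from fewer cells of a type cannot be told apart from less RNA per cell.

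Glycolysis splits glucose into pyruvate. Hexokinases and phosphofructokinases spend ATP on the sugar, aldolase cleaves it into trioses, and the enzymes from glyceraldehyde 3-phosphate dehydrogenase to pyruvate kinase recover ATP. Lactate dehydrogenase then turns pyruvate into lactate. The developing retina, like the mature one, makes lactate even when oxygen is present. When oxygen falls, the prolyl hydroxylases encoded by Egln1 and Egln3 stop marking the factors HIF-1 alpha (Hif1a) and HIF-2 alpha (Epas1) for destruction. The factors then bind a short core sequence in the promoters of their targets, among them most glycolytic enzymes, the glucose carrier Slc2a1, the lactate exporter Slc16a3 and Egln3 itself.

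The HIF core was looked for in the 250 bases before each start site, since it is the sequence that the factors bind in the promoters of their targets. The letters searched were ACGTG and GCGTG on both strands, with overlapping matches on both strands (CACGTG) counted as 1 stretch. RefSeq windows (GRCm38.p6) were matched for 29 of the 31 genes. The core was in 33 of their 41 windows, or 80.5%, against 38.6% of all 32851 windows. The median GC content of the member windows was 61.6%, against 52.4% over all windows. A match is a description of the letters and does not show a bound site. By class, the core was in a window of 14 of 17 enzyme genes, 3 of 3 carrier genes, 3 of 3 genes of factors and hydroxylases, and 6 of 6 target genes. Tpi1, Eno2 and Gpi1 had no match in their window. The windows of Ldha, Bnip3 and Egln3 are printed because Ldha had the largest positive change, Egln3 was the tested member whose groups did not overlap, and Bnip3 is a textbook target. Capitals mark the core.
Ldha (chr7:46845554-46845803, plus strand): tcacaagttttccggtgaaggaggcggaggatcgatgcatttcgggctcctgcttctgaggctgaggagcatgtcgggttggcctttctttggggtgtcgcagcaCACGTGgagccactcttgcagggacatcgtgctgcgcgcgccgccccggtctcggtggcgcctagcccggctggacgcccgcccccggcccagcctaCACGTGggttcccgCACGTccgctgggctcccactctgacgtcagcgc
Bnip3 (chr7:138909507-138909756, minus strand): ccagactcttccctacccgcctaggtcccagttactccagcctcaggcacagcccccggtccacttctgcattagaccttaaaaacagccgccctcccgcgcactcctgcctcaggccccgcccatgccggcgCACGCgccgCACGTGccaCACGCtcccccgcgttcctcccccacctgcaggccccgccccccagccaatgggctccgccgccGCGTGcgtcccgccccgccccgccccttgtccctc
Egln3 (chr12:54203875-54204124, minus strand): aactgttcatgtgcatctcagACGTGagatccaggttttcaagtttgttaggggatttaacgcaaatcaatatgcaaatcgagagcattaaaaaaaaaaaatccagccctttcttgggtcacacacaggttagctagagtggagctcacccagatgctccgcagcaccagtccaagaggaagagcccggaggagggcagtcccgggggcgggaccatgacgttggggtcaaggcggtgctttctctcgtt
The printed Ldha window held 3 stretches, while a window at a second Ldha start in the table held 1, and the Bnip3 window held 4, and the Egln3 window 1, which lay 229 bases before the start.

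Signals are MAS5 intensities on a linear scale, and array medians ran from 93.6 to 129. The highest bacterial control probe set on an array read between 22.1 and 39.3, and signals of that size lie near the background. Gpr143 read 246 to 257 on the WT arrays and 6.02 to 39.1 on the Oa1-/- arrays, so the arrays followed their labels as far as that probe set lies in the deleted part. WT replicate 3 stood apart in the Y-linked gene Eif2s3y, at 9.26, while the other 5 arrays read 406 to 805. The Y-linked genes Kdm5d and Uty read 13.5 and 14.4 there, against 377 to 736 and 189 to 250 on the other 5. The X-linked Xist was highest on that array, at 14195 against 6737 to 12721. By these genes that pool held little or no male RNA, though the labels give no sex. Oa1-/- replicate 1 stood apart in the 5' control for 18S ribosomal RNA, at 11826 against 2227 to 5201 on the other 5. That control also separated the genotypes, at 2227 to 4049 in WT and 4828 to 11826 in Oa1-/-. So did the 3' control for 18S, at 1476 to 1988 and 2608 to 6348, while the groups of the middle control overlapped. The part of this RNA difference in the member signals was not tested. Of the marker genes listed for the tissue, 9 of 9 measured for retinal progenitors, 9 of 9 for retinal ganglion cells and 9 of 10 for the pigment epithelium had a mean above the bacterial controls. Rpe65 of the pigment epithelium did not. Lens markers were above the controls for 10 of 10 genes, although the anterior segments had been removed.

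Loss of Oa1 was not accompanied by a detectable change of any tested member. In limma with Benjamini-Hochberg adjustment over all 27022 probe sets, 0 of 27 members had an adjusted p below 0.05, and the members' adjusted p ran from 0.985 to 0.999. Of all 27022 probe sets, 0 passed, and 1109 of them, or 4.1%, had an unadjusted p below 0.05. At that unadjusted p there were 0 of 27 members, against 3.65% of the 12880 tested genes read in the same way. The tested members' log2 changes, Oa1-/- minus WT, ran from −0.27 (Hk2) to 0.15 (Ldha), a log2 scale on which a pseudocount of 16 was added to the signal. The 95% intervals of the 27 changes each included 0 and together reached from −0.71 (Pfkp) to 0.53 (Ankrd37). They differed in width, and that of Pgam1, which had the smallest SE, was −0.07 to 0.30. Changes inside a gene's own interval are not resolved with 3 pools per genotype. The median change was −0.07 over the 27 members and 0.0025 over the 12880 genes. Of the members 7 had a positive and 20 a negative change, while 50.8% of all genes were positive. With each array centred on its median the split was 10 positive and 17 negative, and with array weights 16 and 11. The share of all genes that were positive is not given for these settings.

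**Figure D1:**
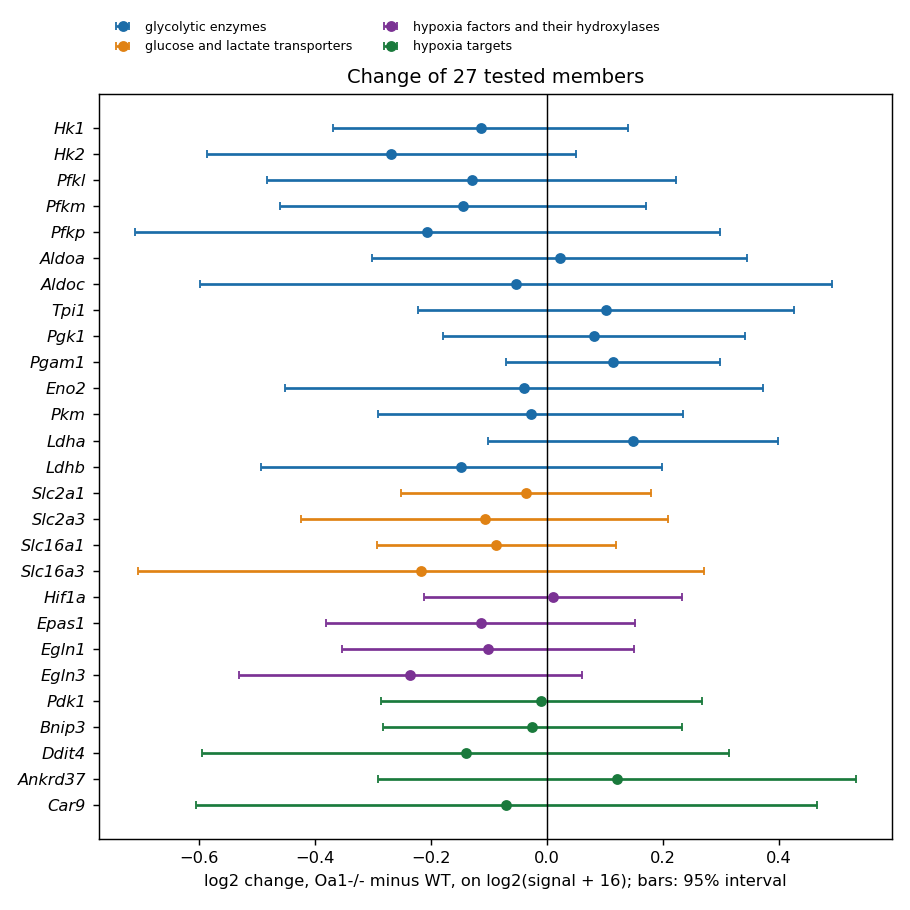
Log2 change (Oa1-/- minus WT, on the log2(signal + 16) scale) of each of the 27 tested members, coloured by class, with its 95% interval from limma (3 arrays per genotype). All 27 intervals include 0, and the changes lie between −0.27 and 0.15.

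The classes were described by their medians. The 14 tested enzymes had a median log2 change of −0.05, with 5 positive and 9 negative. The 4 carriers had a median of −0.10 with 4 negative, the 4 genes of factors and hydroxylases one of −0.11 with 3 negative, and the 5 tested targets one of −0.03 with 4 negative. Single arrays moved these medians. Without WT replicate 3 they were 0.08, −0.07, −0.11 and 0.07 in the same order, so that of the enzymes and that of the targets turned sign, and 18 of 27 members were positive, beside 52.6% of all genes. Without WT replicate 1 the enzyme median was −0.15. Without Oa1-/- replicate 3 the carrier median was −0.017 and that of the targets 0.033.

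The clearest pattern lay between litters of 1 genotype. WT replicate 3 gave the highest of the 6 signals for 16 of 27 members, or 59.3%, where it was the highest array for 23.6% of all genes. Among the enzymes it was highest for 9 of 14. All 14 enzymes read higher on WT replicate 3 than the mean of the other 5 arrays, where 53.9% of all genes did. The enzymes' median excess on that array was 0.33 on the log2 scale, and the median over all genes was 0.02. WT replicate 1 lay at the other end, with the lowest signal for 8 of the 14 enzymes, where it was the lowest array for 23% of all genes. Among the knockouts, replicate 1 was highest for 6 of the 27 members, at 22.2% of them and 22.2% of all genes, and replicate 3 was lowest for 9, where it was lowest for 15.4% of all genes. The targets were high on WT replicate 3 too, 5 of 5 above the mean of the other arrays with a median excess of 0.25, while factors and hydroxylases split evenly, 2 of 4 above. After quantile normalization WT replicate 3 was highest for 18 of the 27, and with each array centred on its median for 12. The shares over all genes under these scalings are not given, so the excess that remained cannot be read from these counts.

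**Figure D2:**
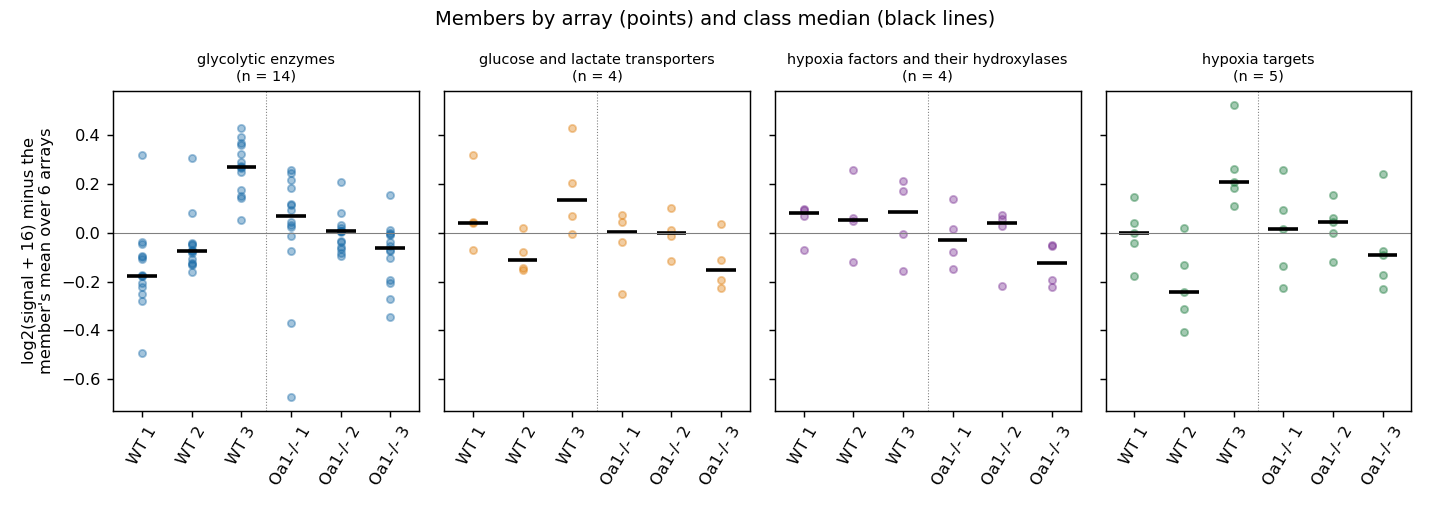
Each point is 1 tested member on 1 array, given as log2(signal + 16) minus that member's mean over the 6 arrays, and the black line is the class median. The enzyme median is lowest on WT replicate 1 (−0.18) and highest on WT replicate 3 (0.27), while the 3 Oa1-/- arrays lie between −0.06 and 0.07.

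Summed marker signals of several other tissues moved with these arrays. The summed signal of the 12 skeletal muscle markers was 6527, 13722 and 18603 on WT replicates 1 to 3 and 18593, 9074 and 12745 on the Oa1-/- arrays. That of the 10 lens markers was 117181, 155358 and 160666 in WT and 142235 to 154830 in Oa1-/-. The sum of the 6 measured erythroid markers went the other way, at 23218, 9026 and 3556 in WT and 6880 to 10047 in Oa1-/-, with Hba-a1 and Epb42 under the bacterial controls. That sum was mostly the globin Hbb-y (19360, 7799 and 2752 in WT), whereas Alas2 read 437, 595 and 580 in WT. By these sums WT replicate 1 was lowest in muscle and lens markers and highest in erythroid ones, and WT replicate 3 the reverse. The muscle sum was nearly as high on Oa1-/- replicate 1. Single genes did not all follow the sums. WT replicate 3 was the highest array for 3 of 12 muscle markers (25%) and 6 of 10 lens markers (60%), beside 23.6% of all genes. Pigment epithelium markers summed to 32973 on WT replicate 1 and 41944 on WT replicate 3, and those of periocular mesenchyme to 74100 and 90593, again the lowest and the highest of the 6 arrays. Of the 9 tested pigment epithelium markers 4 were highest on WT replicate 3, while Mitf was lowest there (1441 against 1536 to 1844). The mesenchyme sum followed bright genes such as Col1a1 (6221, 8127 and 9193 in WT), and not all genes of that list shared the order. Twist1 (1012, 721 and 671 in WT), Foxc1 (1278, 935 and 751), Foxc2 and Pdgfra fell from WT replicate 1 to 3. The summed markers of retinal ganglion cells instead separated the genotypes, at 53659 to 56622 in WT and 58554 to 65229 in Oa1-/-. Of their 9 genes 4 had an unadjusted p below 0.05 in limma, beside 3.65% of all genes, with 0 past the threshold. Groups did not overlap for 4 of the 9, beside 10.8% of all genes. The change was positive for 7 and negative for 2 (Nefl and Ebf3). The summed markers of astrocytes and the optic nerve head also separated the genotypes, at 1320 to 1590 in WT and 1641 to 1760 in Oa1-/-. Of their 5 measured genes only 2 passed the filter, and the sum was mostly Slc1a3 (1069 to 1292 in WT and 1351 to 1545 in Oa1-/-). Muscle forms of glycolytic enzymes were among the muscle markers, with Eno3 at 657, 788 and 1052 in WT and Pgam2 at 564, 1461 and 1334. The part of these tissues, and of the absent Y-linked signal, in the levels of the members was not tested.

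Hexokinases and phosphofructokinases, the kinases of the upper pathway, were lower on average in Oa1-/- for 5 of 5 genes, without passing the test. Hk2, the hexokinase that hypoxia and growth signals induce, read 1360, 1034 and 1208 in the WT pools against 837, 1089 and 1057 in the knockouts. Its groups overlapped, and Oa1-/- replicate 1 was the lowest array. The log2 change was −0.27 (SE 0.14, adjusted p = 0.985 in limma), and −0.15 without Oa1-/- replicate 1. Leaving out WT replicate 2 made it −0.37 (unadjusted p = 0.0381, adjusted p = 1.00 in limma, where 3.42% of all genes had an unadjusted p below 0.05), and with array weights it was −0.063.

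Pfkp, the platelet-type phosphofructokinase, read 1445, 1579 and 1806 in the WT pools against 930, 1724 and 1661 in the knockouts. A single array gave its mean difference: the log2 change was −0.21 with all arrays and 0.08 without Oa1-/- replicate 1, where another Pfkp probe set (1437759_at) was also lowest. Pfkl, the liver type, read 1847, 1820 and 2687 in WT against 2055, 1943 and 1724, and Pfkm, the muscle type, 936, 974 and 1294 against 1029, 965 and 876. WT replicate 3 was the top array for both, and leaving it out gave changes of 0.05 and −0.00061. Hk1, the constitutive hexokinase, had the same pattern, at 1971 on WT replicate 3 and 1516 to 1592 on the other 5 arrays.

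From the trioses down to lactate, the changes were of both signs. This grouping by step was made after the values had been seen. Of 8 enzymes with Gapdh included, 5 had a positive and 3 a negative change, with a median of 0.09. Among the 7 tested genes, without Gapdh, 4 were positive and 3 negative, where 50.8% of all genes were positive. Without WT replicate 3 all 8 of the former were positive, from 0.01 to 0.26 with a median of 0.18, beside 52.6% of all genes. The 5 upper kinases then had a median of −0.00061. Without WT replicate 1 the count among the 7 tested genes was 2 positive and 5 negative.

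Ldha encodes the lactate dehydrogenase subunit that favours lactate formation. It read 10104, 10438 and 12875 in the WT pools against 13566, 11718 and 11641 in the knockouts. WT replicates 1 and 2 lay below all 3 Oa1-/- arrays, and WT replicate 3 lay among them. The mean was 11139 ± 1513 in the WT pools and 12308 ± 1090 in the knockouts (SD, n = 3), which is 0.15 on the log2 scale (SE 0.11, adjusted p = 0.985 in limma). Without WT replicate 3 it was 0.26 (unadjusted p = 0.0216, adjusted p = 0.909 in limma), where 3.81% of all genes had an unadjusted p below 0.05. It was 0.077 without Oa1-/- replicate 1 and 0.083 without WT replicate 1, so single arrays moved it both ways.

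Tpi1, triose phosphate isomerase, read 9406, 10481 and 13593 in the WT pools against 13536, 11130 and 10996 in the knockouts (log2 change 0.10, and 0.25 without WT replicate 3). Pgk1, the X-linked phosphoglycerate kinase, read 8820, 9764 and 11635 against 11686, 10348 and 9798 (0.08 and 0.19). In both genes WT replicate 3 and Oa1-/- replicate 1 were the top arrays, and without the latter their changes were 0.0049 and 0.0090. Pgam1, phosphoglycerate mutase, read 5813, 6353 and 6800 against 7012, 6951 and 6528 (0.11 and 0.17), and only 1 WT value lay inside the range of Oa1-/-. Pkm, pyruvate kinase, read 6034, 6596 and 8227 against 6945, 6985 and 6361, with a change of −0.03 that turned to 0.10 without WT replicate 3. Neuronal enolase, Eno2, read 207, 214 and 309 in the WT pools against 223, 240 and 236 in the knockouts, so that its spread in WT came from 1 array.

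Gapdh was read by 3 control probe sets along its transcript, which were left out of the tests as controls and were fitted in an alternative added after the data had been seen. The 5' probe set read 16994, 18064 and 18136 in the WT pools against 21475, 18981 and 19579 in the knockouts, and its groups did not overlap. Its change was 0.17 on the log2 scale (SE 0.07, unadjusted p = 0.0456, adjusted p = 0.985 in limma). The changes of the middle and the 3' probe sets were 0.16 and 0.10, with overlapping groups. The ratio of the 3' to the 5' Gapdh signal, a measure of how complete the RNA copies are, was 0.985 on WT replicate 3 and 0.798 to 0.841 on the other 5 arrays, and the same ratio of Actb was highest on that array too, at 1.34 against 1.19 to 1.30. Its part in the member signals was not tested.

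Aldolase showed how far probe sets of 1 gene can differ. Aldoa, the muscle and general form, had 5 tested probe sets, of which 4 were highest on WT replicate 3. Its brightest read 6799, 7523 and 10149 in the WT pools against 8780, 7576 and 8163 in the knockouts (log2 change 0.02, and 0.19 without WT replicate 3). The dimmest, 1447734_x_at, did not overlap between groups, at 1062 ± 121 in the WT pools and 1263 ± 48.6 in the knockouts (SD, n = 3, higher in 3 of 3). Its log2 change was 0.25 (unadjusted p = 0.0402, adjusted p = 0.985 in limma, where 4.1% of all probe sets had an unadjusted p below 0.05). Aldoc, the brain form, read 410, 727 and 706 in the WT pools against 702, 588 and 456 in the knockouts. Of the 14 members with several probe sets that passed the filter (or, for Gapdh, several control probe sets), 8 had changes of 1 sign on all of them and 6 had mixed signs (Aldoa, Tpi1, Pgk1, Ldhb, Slc2a3 and Hif1a), and 1439435_x_at of Pgk1 had a change of −0.41.

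**Figure D3:**
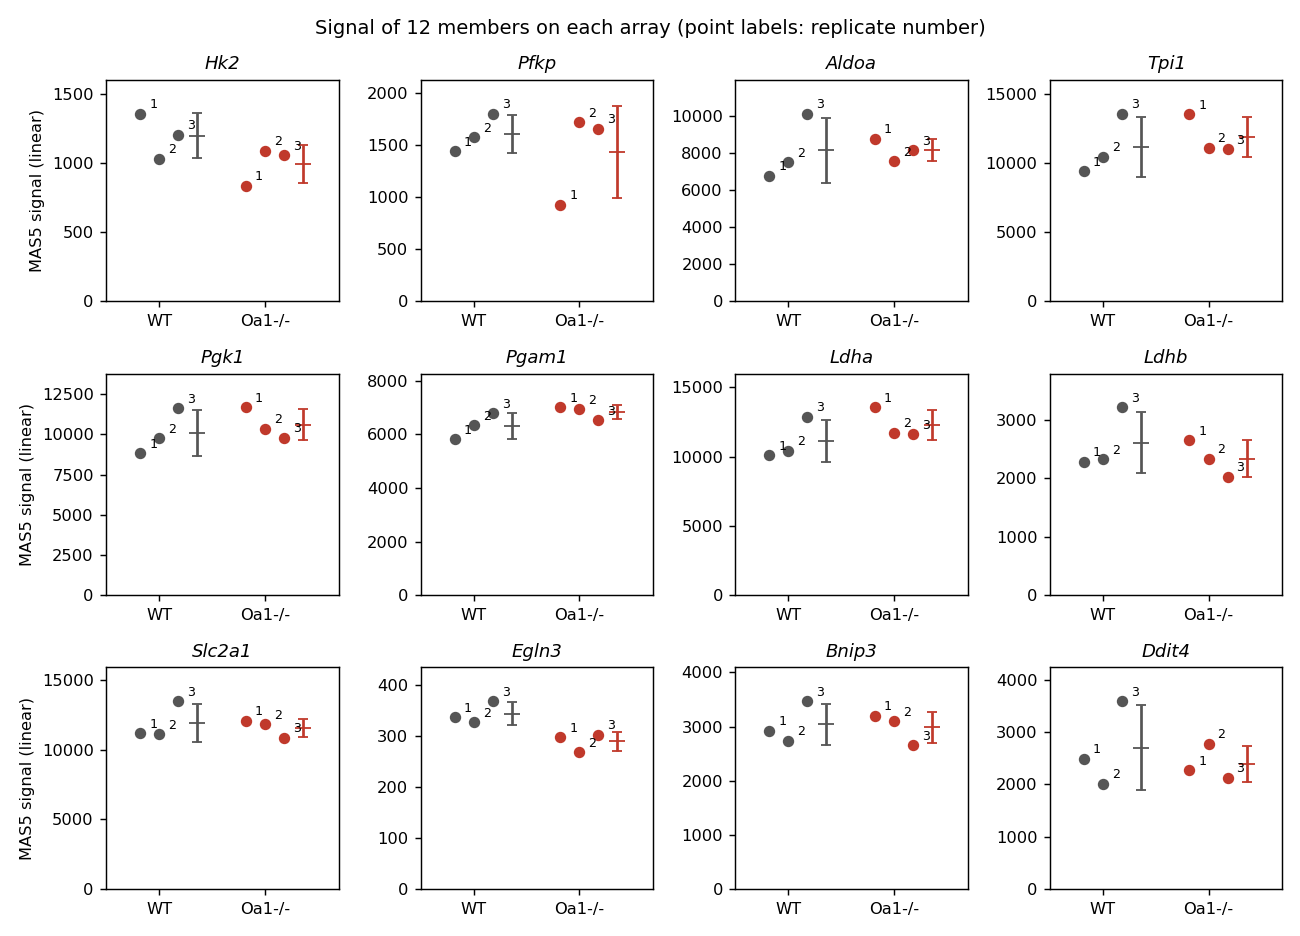
MAS5 signal of 12 members on each array, with points numbered by replicate (WT grey, Oa1-/- red) and the group mean ± SD beside them. WT replicate 3 is the highest WT point for 11 of the 12, Hk2 being the exception, and of these 12 only Egln3 has groups that do not overlap.

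Pairs of related genes were compared within arrays, where the array's scale cancels. The log2 difference of 2 probe sets does not say which gene has more RNA, only whether they moved unequally. Of 9 pairs, 1 separated the genotypes. Ldhb, the subunit that favours lactate use, minus Ldha gave −2.14, −2.16 and −2.00 in WT and −2.35, −2.32 and −2.51 in Oa1-/-. The difference between genotypes was −0.30, with an exact two-sided permutation p of 0.1, the smallest that 3 against 3 can give, and an adjusted p of 0.9 over the 9 pairs. It rested on the brightest Ldhb probe set. With the mean of each gene's probe sets the difference was −0.14, and 2 of the 4 Ldhb probe sets had a positive change. The other 8 pairs had differences between −0.15 (Hk2 minus Hk1) and −0.015 (Pfkm minus Pfkl) and exact permutation p-values of 0.5 to 1.

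None of the 4 carriers passed the test. Slc2a1 (GLUT1), which brings glucose across the blood-retina barrier and into cells, read 11155, 11082 and 13475 in the WT pools against 12070, 11799 and 10836 in the knockouts. The groups overlapped, the log2 change was −0.04 (SE 0.09, adjusted p = 0.990 in limma), and its 3 probe sets each had a negative change. Slc16a3 (MCT4), the lactate exporter that hypoxia induces, had the largest difference among them, at 125, 108 and 169 in the WT pools against 99.6, 111 and 125 in the knockouts (log2 change −0.22, SE 0.21), and the change was −0.06 without WT replicate 3. The neuronal glucose carrier Slc2a3 read 1340 to 1688 in Oa1-/- and 1411 to 1963 in WT. Slc16a1 (MCT1), which carries lactate both ways, read 1875 to 2263 and 2177 to 2254.

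Hif1a read 9933, 10867 and 10392 in the WT pools against 11487, 10959 and 9107 in the knockouts, and its change was 0.01 (log2, SE 0.10, adjusted p = 0.998 in limma). Its WT range lay inside that of Oa1-/-. HIF alpha proteins are set mainly by their breakdown, which arrays do not measure. Epas1 read 1764, 2010 and 1505 in the WT pools against 1512, 1714 and 1620 in the knockouts (log2 change −0.11, and −0.22 without WT replicate 3), and was the 1 tested member of 27 with its lowest signal on WT replicate 3. Egln1, the main oxygen sensor, read 2507, 2156 and 2640 against 2367, 2434 and 2003 (−0.10).

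Egln3, a hydroxylase gene that HIF itself induces, was the only tested member whose groups did not overlap. It read 337, 326 and 368 in the WT pools against 297, 268 and 302 in the knockouts, so each Oa1-/- array lay under the lowest WT array. The mean was 343 ± 21.7 in the WT pools and 289 ± 18.4 in the knockouts (SD, n = 3), and the log2 change was −0.24 (SE 0.13, adjusted p = 0.985 in limma, lower in 3 of 3). This was 1 member of 27, or 3.70%, where 10.8% of all genes had groups that did not overlap and 5.3% had each knockout array lower. Array weights gave Egln3 a change of −0.26 (unadjusted p = 0.0354, adjusted p = 0.412 in limma, where 10.8% of all genes had an unadjusted p below 0.05), and without WT replicate 3 it was −0.19. The dimmer Egln3 probe set, 1418648_at, had a change of −0.42 with overlapping groups.

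Among the targets, Ddit4, an inhibitor of mTOR signalling that stress and hypoxia induce, had the widest spread, at 2495, 2011 and 3595 in the WT pools against 2272, 2781 and 2130 in the knockouts. WT replicate 3 was far above the other 5 arrays. Its log2 change was −0.14 (SE 0.20, adjusted p = 0.985 in limma) and 0.09 without WT replicate 3. Bnip3, which directs mitochondria to autophagy, read 2919, 2741 and 3469 against 3201, 3095 and 2657 (−0.03, and 0.07 without that array). Pdk1, which keeps pyruvate out of the mitochondrion, read 1351, 1026 and 1316 against 1231, 1270 and 1142, and Ankrd37, an ankyrin repeat gene, read 396, 286 and 440 against 463, 385 and 364. Car9, a carbonic anhydrase that strong hypoxia induces, stayed dim at 67.3 to 101 over the 6 arrays. Adm, the peptide adrenomedullin, read 32.8 to 66.7 and was not tested.

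**Figure D4:**
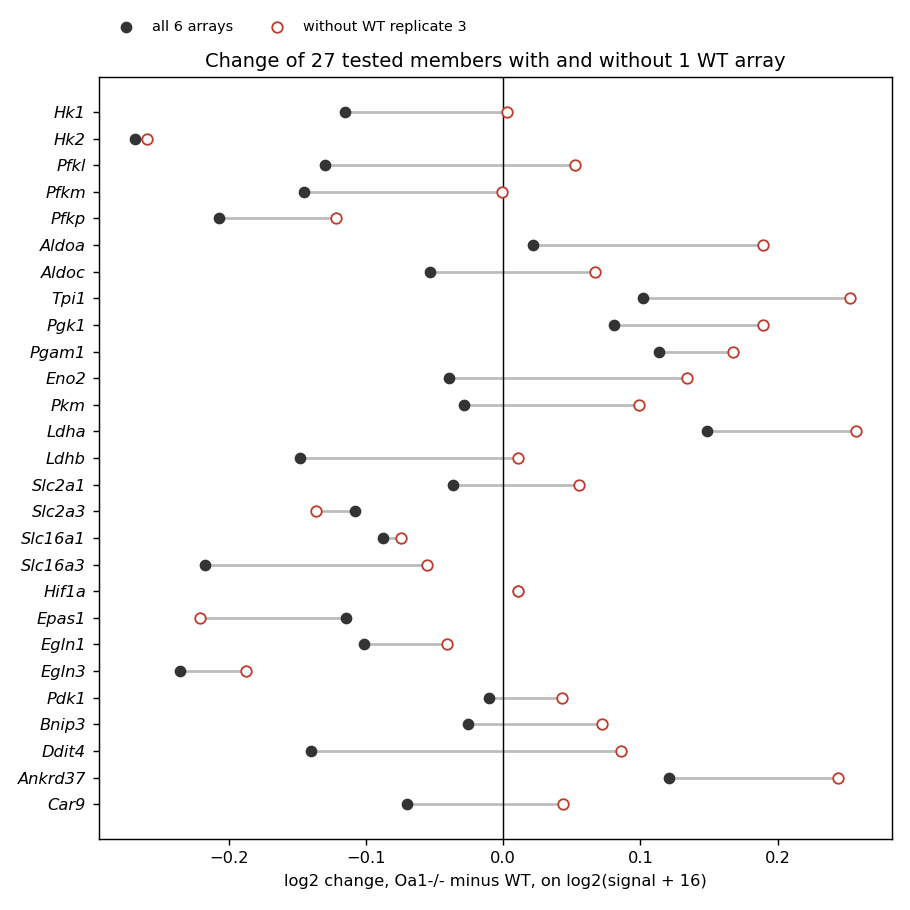
Log2 change of the 27 tested members (Oa1-/- minus WT, log2(signal + 16) scale) with all 6 arrays (filled) and without WT replicate 3 (open). The number of members with a positive change goes from 7 to 18, and the largest positive changes with WT replicate 3 left out are those of Ldha (0.26) and Tpi1 (0.25).

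Other genes of the same pathways were read from lists beside the members, leaving out Hk2, which the target list also holds, and 0 of 15 tested glycolysis genes, 0 of 10 of pyruvate entry, 0 of 10 carriers, 0 of 13 of oxygen sensing and 0 of 27 other targets passed the threshold in limma. At an unadjusted p below 0.05 there were 1, 2, 1, 1 and 1 in the same order, or 6 of the 73 different genes (8.22%), beside 3.65% of all genes. These include Gapdhs, which passed the filter only through its knockout signals. Groups did not overlap for 1, 2, 1, 3 and 2 genes of the lists in the same order, where they did not for 10.8% of all genes. The genes named below were taken by smallest p. The median log2 changes of the lists were 0.0058, 0.04, −0.03, −0.04 and −0.05. Pdp1, the phosphatase that switches on pyruvate dehydrogenase, read 487, 520 and 554 in the WT pools against 672, 627 and 646 in the knockouts, and Mpc1, a subunit of the mitochondrial pyruvate carrier, 1181, 1364 and 1149 against 1766, 1395 and 1374. Their groups did not overlap, with log2 changes of 0.31 and 0.29 and unadjusted p-values of 0.0174 and 0.0464 in limma (adjusted p = 0.985 for both). In the same list Pdk2, a kinase that opposes Pdp1, had a change of 0.27 and Pdhb, a subunit of pyruvate dehydrogenase, one of 0.14, with overlapping groups. The summed markers of ganglion cells, and those of astrocytes and the optic nerve head, were higher in each Oa1-/- array as well. The part of these cells in the genes that read higher there (the 5' Gapdh probe set, Pdp1, Mpc1 and Bsg) was not tested.

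Bsg, the chaperone that carries lactate transporters to the membrane, read 2927, 3390 and 3476 in the WT pools against 4133, 3545 and 3841 in the knockouts (log2 change 0.23, unadjusted p = 0.0386). Its groups did not overlap, while the carriers Slc16a1 and Slc16a3 were lower on average. Arnt, the partner that both HIF alpha proteins need, read 1591, 1739 and 1652 against 1508, 1287 and 1362 (−0.26, unadjusted p = 0.0206), and Hif1an, the asparagine hydroxylase that restrains them, 802, 836 and 875 against 781, 788 and 767 (−0.10). Both had each Oa1-/- array below each WT array. Of the other targets, Hmox1, the heme oxygenase that oxidative stress also induces, read 106, 131 and 111 against 155, 166 and 188 (0.49, unadjusted p = 0.0229), and P4ha1, a collagen hydroxylase subunit, had a change of −0.19, with no overlap in either. Gapdhs, the sperm form of Gapdh, had the largest change of the glycolysis list (log2 change 0.82, unadjusted p = 0.00698). It read 50.6 ± 8.23 in the WT pools and 102 ± 18.3 in the knockouts (SD, n = 3). Each WT array, at 41.7 to 58.0, lay under the filter of 66.1. Gapdhs was thus tested only through its knockout signals, and its p cannot serve as support for a change. The adjusted p was 0.985 for each of these genes in limma.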

How the data were processed

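The authors deposited a linear signal intensity for each probe set on each array, computed with MAS5 per the submitters' processing notes. From the values, each array was scaled to a common target: the mean after trimming 2% at each end was 500.002 on all 6 arrays. No MAS5 version is named there.

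Probe sets were named through the platform annotation, which gave 1 symbol for 34945 of them. Those with several symbols named no gene, so 4 that list a member beside other genes were left out. Values were taken as log2(signal + 16) with no further normalization. The 64 control probe sets were left out, and probe sets with a mean signal above the 40th percentile (66.1) were kept. The whole table of 27022 probe sets entered 1 limma model (version 3.58.1 under R 4.3.3, lmFit and eBayes with an intensity trend), Oa1-/- minus WT, two-sided, with Benjamini-Hochberg adjustment and a threshold of 0.05. The fold scale understates changes of dim probe sets. The number of arrays limits the precision.

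Members given in full were those whose groups did not overlap, those at an unadjusted p below 0.05, and the brightest and the most changed of each class. Other members were chosen to show the pathway in order, after their values had been seen, and up to 4 genes of each further list were taken by smallest p. The members and lists were chosen with earlier results of these data known. The code was tested on simulated data.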

Additional observations from a re-analysis of the deposited data

How the results depend on the processing

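Changed in turn were the pseudocount (1 or 64), the filter (none, or the 70th percentile), the scaling (quantile or median), the intensity trend, array weights, a replicate block, and the probe sets read per gene (their mean, or plain ones without a suffix letter), with each array left out, and both arrays that stood apart left out. Members past the threshold were 0 under all 18. The number of probe sets past it over the whole table rose from 0 to 2 with median centring and to 2 with array weights. Members at an unadjusted p below 0.05 were 1 with array weights (Egln3, beside 10.8% of all genes), 1 without both arrays that stood apart (Ldha, beside 4.79%), and 0 to 1 with each array left out (beside 2.51% to 3.93%). The median of the targets was 0.16 with array weights. The numbers of the replicates did not pair the arrays (correlations of deviations −0.29, 0.16 and −0.23), and with the replicate block 0 probe sets and 0 members passed. With each array left out, changes ran from −0.057 to 0.11 for Hif1a, −0.085 to 0.056 for Slc2a1, −0.097 to 0.072 for Bnip3 and −0.33 to 0.086 for Ddit4. Pair differences then ran from −0.053 to 0.024 for Pfkm minus Pfkl, −0.28 to 0.26 for Pfkp minus Pfkl, −0.22 to 0.11 for Aldoc minus Aldoa, −0.19 to 0.10 for Slc2a3 minus Slc2a1 and −0.28 to 0.019 for Slc16a3 minus Slc16a1. Hif1a turned to −0.021 with quantile normalization, −0.071 with its probe sets averaged, −0.040 with plain probe sets and −0.056 without both arrays. Bnip3 turned to 0.0056 with median centring, 0.078 with array weights and 0.020 without both arrays. With array weights Slc2a1 was 0.032 and Ddit4 0.21, and without both arrays they were 0.024 and 0.12, and Slc16a3 0.015. Pfkm minus Pfkl was 0.0050 with quantile normalization and 0.0088 with plain probe sets, and Slc2a3 minus Slc2a1 was 0.093 with probe sets averaged. Without both arrays Pfkp minus Pfkl was 0.17 and Slc16a3 minus Slc16a1 0.15. The cause of these turns was not tested. With each array left out Ldha ran from 0.077 to 0.26. Hk2, Egln3, Ldha and Ldhb minus Ldha kept their sign wherever they were computed. So did the pairs Hk2 minus Hk1, Epas1 minus Hif1a and Egln3 minus Egln1, whose exact permutation p-values were 0.5 to 0.6. A kept sign alone therefore does not show a change.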
